A study of Homo sapiens with 24 samples.

Results

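HSPA4L, HSPA4 and HSPH1 encode the human Hsp110 chaperones of the cytosol and nucleus. They were followed as the 3 genes of those names among 62754 genes, with all 17 of their transcripts among 252894, and with every intron that carries one of the 3 symbols, 59 of 233113, in each of 8 groups. HSPA4L (ENSG00000164070) lies at chr4:127781821-127840733 on the plus strand of GRCh38, HSPA4 (ENSG00000170606) at chr5:133052013-133106449 on the plus strand, and HSPH1 (ENSG00000120694) at chr13:31134973-31162388 on the minus strand. The genes were taken by name, with earlier results of these data known. HSPA4L was among the mRNAs that the study picked for strong ERH-dependent intron retention and followed for splicing and level. Its own direction is therefore not independent evidence.

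Hsp110 proteins are large relatives of HSP70 that act as nucleotide exchange factors: they bind HSP70, make it release ADP and so let it let go of a folding client. They also hold unfolded proteins in solution and work with J-domain proteins in pulling apart aggregates. HSPA4 (also called Apg-2) is the constitutive member in many tissues, HSPH1 (Hsp105) is heat inducible, and HSPA4L (Apg-1) is best known from the testis. ERH, the gene targeted here, encodes a protein that is small, conserved and linked to pre-mRNA splicing. Cycloheximide (CHX) stops translation elongation, and with it the decay of mRNAs that depends on translation.

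The cells were RKO, an established human colon carcinoma line, carrying a Cas9 that doxycycline switches on. All groups received doxycycline, 100 ng/mL for 5 days, so the control cells had active Cas9 too, directed by sgAAVS1 to a safe-harbour locus, while sgERH directed it to ERH. Cells were then given 25 µg/mL CHX or its solvent DMSO for 4 h and split with a mild detergent into nucleus and cytoplasm, which gives 8 groups of guide, fraction and treatment with 3 libraries each, labelled as biological replicates. Polyadenylated RNA was sequenced, and no spike-in was described for these libraries, so each level is relative to its own fraction. The Cas9 line goes back to 1 clone, and cells that had taken up a guide were enriched in bulk by its fluorescent marker, so the edited cells are a pool of alleles.

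Library totals were 44 to 79.5 M counts in the cytoplasm and 27.8 to 41.8 M in the nucleus. ERH itself stood at 149 ± 10.7 CPM (counts scaled to library size; mean ± SD, n = 3) in the sgAAVS1 cytoplasm and 73.1 ± 13.8 with sgERH, both in DMSO, a log2 fold change of -1.03 ± 0.11 (SE; adjusted p = 1.12e-06), and in the nucleus at 18 ± 3.36 and 12.9 ± 1.83 CPM. With CHX the ERH difference was smaller. It stood at 116 ± 7.62 and 70.3 ± 9.86 CPM in the cytoplasm (log2 fold change -0.72 ± 0.11, adjusted p = 6.15e-05). In the nucleus it was at 14.6 ± 0.80 and 13.5 ± 2.87 CPM (-0.12 ± 0.16, adjusted p = 0.59). Edited alleles can still be transcribed, so this mRNA is an incomplete check of the guide. Of 7 colon epithelial markers, 4 reached 1 CPM in a library (CDX2, EPCAM, KRT8 and KRT18), KRT20 was at 0 in every library, and VIL1 and CDH17 stayed under 1 CPM. None of 5 fibroblast and 5 leukocyte markers reached 1 CPM in the cytoplasm, and in the nucleus COL1A1 reached 4.58, COL3A1 1.01 and ITGAM 17.6 CPM. The summed level of 5 nuclear-retained RNAs was 459 to 908 CPM in cytoplasmic and 9630 to 14454 CPM in nuclear libraries.

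The 3 chaperones were distributed differently between the fractions. Per length, in TPM as deposited, a unit scaled for transcript length and library size, HSPA4 had the highest level of the 3 in the control cytoplasm with DMSO, 174 ± 2.71 TPM, followed by HSPH1 with 54.4 ± 3.15 and HSPA4L with 30.5 ± 2.06. In the control nucleus the order was HSPH1, HSPA4 and HSPA4L, at 214 ± 10.9, 93.2 ± 1.18 and 22.1 ± 0.614 TPM. No libraries of neighbouring genes in these 2 orders overlapped. The log2 ratio of nuclear to cytoplasmic CPM in control cells with DMSO was -2.41 ± 0.05 for HSPA4, -0.88 ± 0.07 for HSPA4L and 0.85 ± 0.06 for HSPH1, where the median of all genes tested was 0.05. HSPA4 was thus the most cytoplasmic and HSPH1 the most nuclear of the 3 on this relative scale.

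HSPA4L fell in the cytoplasm after ERH was targeted. With DMSO its level was 155, 151 and 131 CPM in control and 57.3, 57.0 and 58.4 CPM in sgERH cells. The groups did not overlap, and the sgERH libraries lay within about 1 CPM of their mean. The log2 fold change was -1.34 ± 0.06 (adjusted p = 8.28e-11), a level 2.53-fold lower, and only 1.05% of the genes tested had a lower value. To be called, a gene, transcript or intron had to pass an adjusted p of 0.05 and a log2 fold change of 1 in either direction, and an intron also had to be retained at 0.05 or more, on the IR ratio defined with the introns, in one of the groups compared. HSPA4L was the 1 member of 3 called in this comparison, where 11.5% of 16130 genes were called. In bulk libraries, fewer cells with the mRNA and less mRNA per cell cannot be told apart.

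With CHX, the same comparison in the cytoplasm gave a smaller difference for HSPA4L. Its level was 116, 106 and 113 CPM in control and 76.1, 77.5 and 75.7 CPM in sgERH cells, again without overlap. The log2 fold change of -0.55 ± 0.06 (adjusted p = 1.71e-06) was under the size threshold, and none of the 3 members was called, against 7.22% of genes. The difference between the 2 effects was tested directly: the sgERH effect was 0.79 ± 0.09 higher with CHX than with DMSO on the log2 scale (adjusted p = 6.07e-06), with 3.63% of genes called in that test and HSPA4L under its size threshold. CHX itself gave HSPA4L a log2 fold change of -0.38 ± 0.06 (adjusted p = 3.18e-05) in control cytoplasm and 0.41 ± 0.06 (adjusted p = 3.33e-05) in sgERH cytoplasm, both under the size threshold. The order of the cytoplasmic groups in CPM was therefore sgAAVS1 with DMSO, sgAAVS1 with CHX, sgERH with CHX and sgERH with DMSO. No libraries of neighbouring groups overlapped in CPM. In TPM, which allows for transcript length, the control groups did overlap, at 32.5, 30.5 and 28.4 with DMSO and 31.2, 27.4 and 31.1 with CHX. The fall with CHX in control cytoplasm was thus not seen in both units.

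In the nucleus HSPA4L was not lower with sgERH. With DMSO its level was 94.8, 91.5 and 88.0 CPM in control and 124, 121 and 130 CPM in sgERH nuclei. These did not overlap, and the log2 fold change was 0.45 ± 0.09 (adjusted p = 0.00105), under the size threshold; it was 0.17 when a length offset allowed for the lengths of the transcripts assigned. With CHX the nuclear libraries held 159, 161 and 168 CPM in control and 142, 164 and 197 CPM in sgERH cells, which overlapped, and the log2 fold change was 0.04 ± 0.09 (adjusted p = 0.745). Without sgERH replicate 3, the library at 197 CPM, that value was -0.09. No member was called in either nuclear comparison of the guides, where 6.5% of genes were called with DMSO and 8.96% with CHX.

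The sgERH effect on HSPA4L differed between the fractions. In 1 fit over both fractions with DMSO, it was 1.81 ± 0.09 higher in the nucleus than in the cytoplasm on the log2 scale (adjusted p = 1.05e-09), that is 3.50-fold, and 1.66% of genes tested had a higher value. HSPA4L was the only member called there, where 5.73% of genes were called. The nuclear-to-cytoplasmic log2 ratio of HSPA4L went from -0.88 ± 0.07 in control to 0.92 ± 0.07 in sgERH cells. With CHX the difference between fractions was 0.68 ± 0.13 (adjusted p = 0.000671), with 6.83% of genes called and no member among them.

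**Figure D1:**
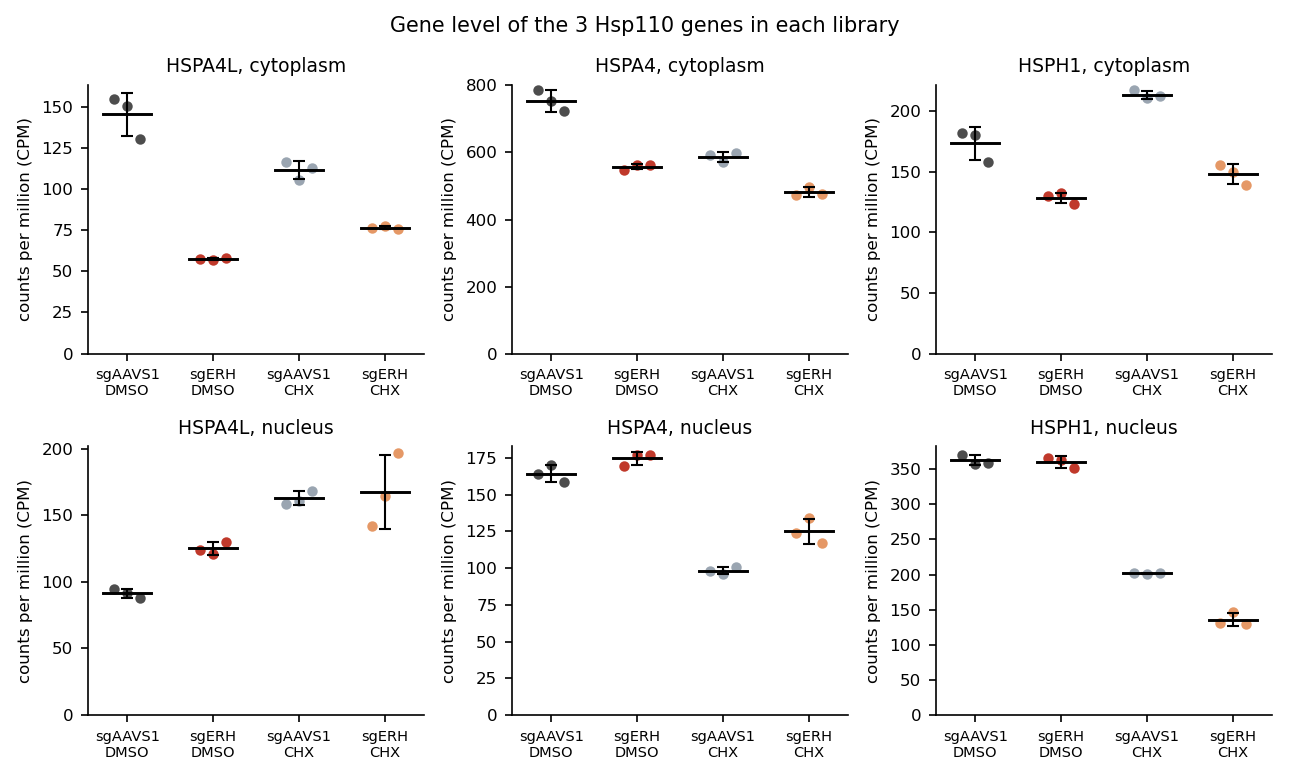
Gene level of HSPA4L, HSPA4 and HSPH1 in CPM (vertical axes, from 0, scaled per panel) in the cytoplasm (upper row) and nucleus (lower row), for control (sgAAVS1) and sgERH cells with DMSO or CHX. Points are libraries and black bars the mean and SD (n = 3), and HSPA4L shows cytoplasmic means of 146 and 57.6 CPM with DMSO against nuclear means of 91.4 and 125 CPM.

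HSPA4, the most abundant of the 3 in the cytoplasm, moved less. Its cytoplasmic libraries in DMSO held 787, 754 and 723 CPM in control and 548, 562 and 563 CPM in sgERH cells. The groups did not overlap, but the log2 fold change of -0.44 ± 0.05 (adjusted p = 7.00e-07) was under the size threshold, as was -0.29 ± 0.05 (adjusted p = 7.92e-05) with CHX. In the nucleus its mean was 164 ± 5.66 CPM in control and 175 ± 4.33 in sgERH cells with DMSO (log2 fold change 0.09 ± 0.07, adjusted p = 0.337), and 98.4 ± 2.39 against 125 ± 8.47 CPM with CHX (0.35 ± 0.07, adjusted p = 0.000458). The difference of the sgERH effect between nucleus and cytoplasm was 0.54 ± 0.07 with DMSO (adjusted p = 2.16e-05) and 0.73 ± 0.10 with CHX (adjusted p = 6.46e-05).

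HSPH1, the heat-inducible member, was called in 1 of the comparisons of guides or treatments within a fraction, CHX against DMSO in sgERH nuclei. Its nuclear libraries in DMSO held 371, 358 and 359 CPM in control and 366, 364 and 351 CPM in sgERH cells, which overlapped (log2 fold change -0.01 ± 0.07, adjusted p = 0.935). With CHX they held 202, 201 and 202 CPM in control and 131, 147 and 129 CPM in sgERH cells. Both CHX groups lay below both DMSO groups. In sgERH nuclei HSPH1 fell with CHX by 1.41 ± 0.07 on the log2 scale (adjusted p = 3.14e-11), 2.65-fold, the 1 member called where 14.8% of genes were called. In control nuclei the same comparison gave -0.85 ± 0.07 (adjusted p = 4.14e-09), no member was called, and 25.2% of genes were. The sgERH effect on HSPH1 in the nucleus differed between CHX and DMSO by -0.56 ± 0.09 (adjusted p = 0.00043), a test in which 3.62% of genes and no member were called.

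In the cytoplasm HSPH1 went the other way with CHX, at 173 ± 13.3 CPM with DMSO and 214 ± 3.28 with CHX in control cells (log2 fold change 0.30 ± 0.06, adjusted p = 0.000269) and 129 ± 4.32 and 148 ± 8.47 in sgERH cells (0.20 ± 0.06, adjusted p = 0.00853). Neither was called, and neither were the other members; the shares of genes called were 19.9% and 9.03%. The sgERH effect on HSPH1 was -0.43 ± 0.06 with DMSO (adjusted p = 1.22e-05) and -0.53 ± 0.06 with CHX (adjusted p = 1.83e-06) in the cytoplasm. HSPA4 had log2 fold changes of -0.36 ± 0.05 and -0.21 ± 0.05 with CHX in control and sgERH cytoplasm, and -0.74 ± 0.07 and -0.48 ± 0.07 in the nuclei, while HSPA4L had 0.83 ± 0.09 and 0.42 ± 0.09 in the nuclei. Each of these passed an adjusted p of 0.05 and none the size threshold. The nuclear response to CHX thus had 1 sign for HSPA4 and HSPH1 and the opposite sign for HSPA4L.

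Retained introns were measured by the IR ratio, the depth over an intron divided by that depth plus the spliced reads across it, so that 0 stands for none and 1 for all transcripts with the intron. In control nuclei with DMSO the 18 canonical introns of HSPA4L had a median IR ratio of 0.0451, those of HSPA4 0.0109 and the 17 of HSPH1 0.0665. The highest were intron 11 of HSPA4L at 0.267, intron 16 of HSPA4 at 0.0782 and intron 5 of HSPH1 at 0.445. HSPH1 thus had well-retained introns in control nuclei, while no HSPA4 intron reached 0.1.

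In sgERH nuclei with DMSO, 3 neighbouring introns of HSPA4L rose. Intron 9 (462 bases, chr4:127805225-127805686) had IR ratios of 0.0452, 0.0937 and 0.0549 in the control libraries and 0.363, 0.656 and 0.556 with sgERH. Intron 8 (985 bases, chr4:127804088-127805072) had 0.0509, 0.0891 and 0.0454 against 0.259, 0.359 and 0.264. Intron 10 (2202 bases, chr4:127805794-127807995) had 0.0426, 0.0294 and 0.0202 against 0.177, 0.166 and 0.114. In none of the 3 did a control library reach an sgERH library. The log2 fold changes of intron depth relative to spliced reads were 3.99 ± 0.50 for intron 9 (adjusted p = 0.000212), 2.60 ± 0.39 for intron 8 (adjusted p = 0.000846) and 2.42 ± 0.41 for intron 10 (adjusted p = 0.00208), while the median over all introns tested was -0.37. Reads covered 100% of introns 9 and 10 in each sgERH library and at least 91.7% of intron 8, with depths of 35.9 to 98.7 over intron 9 against 3.41 to 10.1 in control.

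The other introns of HSPA4L did not follow. Intron 11, directly downstream and retained in control nuclei, had a mean of 0.267 in control and 0.204 with sgERH (log2 fold change -0.51 ± 0.30, adjusted p = 0.34); it contains an annotated processed pseudogene. The 3 introns were the only ones called among the 18 of HSPA4L tested, of 20 in the tables. The share of all introns called in this comparison was 4.64%.

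HSPH1 introns moved in both directions, and HSPA4 introns did not pass. Intron 6 of HSPH1 (417 bases, chr13:31151192-31151608) rose, from 0.147, 0.157 and 0.218 in control to 0.441, 0.374 and 0.427 in sgERH nuclei (log2 fold change 1.77 ± 0.22, adjusted p = 0.000226). Introns 8 and 17 fell. Intron 8 had 0.404, 0.310 and 0.349 in control and 0.198, 0.203 and 0.192 with sgERH (log2 fold change -1.15 ± 0.20, adjusted p = 0.00249), and without sgAAVS1 replicate 1 its value was -0.99 and the call was lost. Intron 17, the last, had 0.155, 0.176 and 0.175 against 0.0601, 0.0649 and 0.0657 (log2 fold change -1.58 ± 0.15, adjusted p = 1.61e-05). Libraries of the 2 groups did not overlap in any of these introns. Intron 5, the neighbour of intron 6, had means of 0.445 and 0.567 (log2 fold change 0.71 ± 0.20, adjusted p = 0.0438), under the size threshold. All 21 HSPH1 introns were tested and 3 were called, where 1.21% of all introns were called higher and 3.44% lower. None of the 18 of HSPA4 was called by edgeR or by DESeq2. An unadjusted p under 0.05 was found for 4 of the 18 of HSPA4, 16 of the 21 of HSPH1 and 3 of the 18 tested of HSPA4L.

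**Figure D2:**
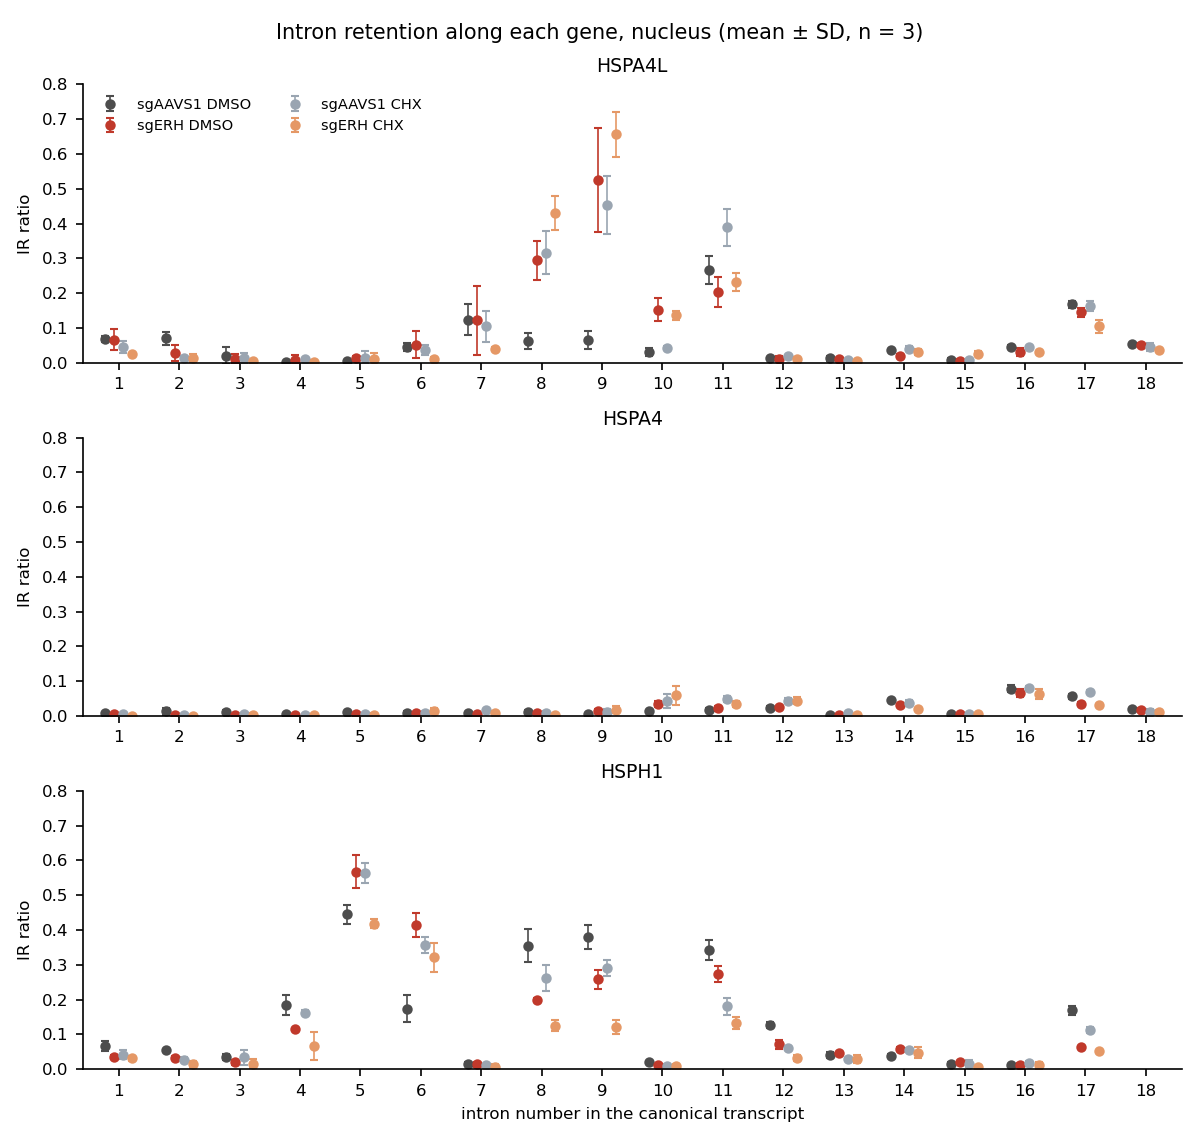
Nuclear IR ratio (vertical axis) of each canonical intron, numbered from the start of the gene (horizontal axis), for HSPA4L, HSPA4 and HSPH1 in the 4 nuclear groups, as mean and SD of 3 libraries. HSPA4L introns 8 to 10 stand above control in sgERH cells, up to 0.525 for intron 9, no HSPA4 intron exceeds 0.081 in any group, and HSPH1 shows both higher and lower introns.

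The splice sites of the called introns are shown because these few letters are what the spliceosome reads at each end. They come from the GRCh38 reference. The 5′ pieces hold the last 3 exon bases and the first 6 intron bases, with the intron's first 2 bases in capitals, and the 3′ pieces hold the last 50 intron bases and 3 exon bases, with the intron's last 2 bases in capitals.
HSPA4L intron 8, 5′: ctaGTaagt
HSPA4L intron 8, 3′: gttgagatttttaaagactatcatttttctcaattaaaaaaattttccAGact
HSPA4L intron 9, 5′: cagGTataa
HSPA4L intron 9, 3′: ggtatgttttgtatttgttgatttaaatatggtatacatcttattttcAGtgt
HSPA4L intron 10, 5′: tggGTaagt
HSPA4L intron 10, 3′: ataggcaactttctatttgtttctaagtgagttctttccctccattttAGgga
HSPH1 intron 6, 5′: aagGTaaag
HSPH1 intron 6, 3′: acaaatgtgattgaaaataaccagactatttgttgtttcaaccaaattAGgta
HSPH1 intron 8, 5′: cagGTactt
HSPH1 intron 8, 3′: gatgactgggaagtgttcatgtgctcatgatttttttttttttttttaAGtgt
HSPH1 intron 17, 5′: aagGTgagt
HSPH1 intron 17, 3′: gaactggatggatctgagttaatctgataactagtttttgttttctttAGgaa

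For comparison, these are the ends of the intron with the smallest difference of nuclear IR ratio between sgERH and control cells with DMSO in each gene, cut and marked in the same way.
HSPA4L intron 12, 5′: atgGTatgt
HSPA4L intron 12, 3′: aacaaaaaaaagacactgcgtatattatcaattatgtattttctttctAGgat
HSPA4 intron 6, 5′: aaaGTaagt
HSPA4 intron 6, 3′: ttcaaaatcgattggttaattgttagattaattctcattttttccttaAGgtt
HSPH1 intron 16, 5′: aagGTgagt
HSPH1 intron 16, 3′: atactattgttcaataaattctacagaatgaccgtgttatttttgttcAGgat

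The 9 introns all begin with GT and end with AG, as do 99.1% of the 173155 canonical introns with sequence here. HSPH1 introns 16 and 17, the least and one of the most altered of that gene, have the same 5′ piece. In the 18 bases ahead of the last 2 (positions 20 to 3 from the end), pyrimidines made up 50% in HSPA4L intron 8, which 0.642% of canonical introns tested in the nucleus fall under, 66.7% in intron 9 and 88.9% in intron 10, against a median of 77.8% over 93121 introns. The called HSPH1 introns 6, 8 and 17 had 61.1%, 94.4% and 83.3%. Low values were also found in introns without a call. HSPA4L introns 2, 14 and 16 had 55.6% each, and the median of that gene was 69.4%. HSPA4 introns 8, 9 and 10 had 55.6%, 61.1% and 88.9%.

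The called introns were poor in G and C, as were these genes in general. Intron 9 of HSPA4L had a GC content of 29.2%, intron 10 29.4%, intron 8 37.2% and intron 6 of HSPH1 30.5%, against a median of 44.1% over all canonical introns tested in the nucleus. The medians over all introns of a gene were 32.4% for HSPA4L, 38.8% for HSPA4 and 33.5% for HSPH1. Over the members, the 4 introns called higher had a median GC content of 29.9% and a median length of 723.5 bases, the 2 called lower 34.3% and 1177.5 bases, and the 46 tested without a call 36.1% and 1796.5 bases. These are descriptions of few introns, with no test.

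Because the 3 genes share an exon layout, introns at the same position could be set side by side. HSPA4L and HSPA4 have 14 of 17 internal exons of equal length, including exons 2 to 11 without a break, and exons 8 and 9 of HSPA4L, of 77 and 152 bases, add up to exon 8 of HSPH1, of 229 bases. HSPH1 therefore has no intron at the position of intron 8 of the others, and its later introns are numbered 1 lower. At position 9, where HSPA4L had an IR ratio difference of 0.46 between sgERH and control nuclei with DMSO, HSPA4 had 0.00705 and HSPH1 intron 8 had -0.157. At position 10 the differences were 0.121, 0.0207 and -0.122. At position 6, where HSPH1 had 0.24, HSPA4L had 0.00754 and HSPA4 0.0000669. No test compared the genes with each other.

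Intron 9 of HSPA4 is close to intron 9 of HSPA4L in length (499 and 462 bases) and GC content (28.9% and 29.2%), but its nuclear IR ratios were 0.00626, 0.0076 and 0.00508 in control and 0.0159, 0.0183 and 0.00594 in sgERH cells. The ends of HSPA4 introns 8 to 10, which were picked after the values were seen because they sit at the positions of the called HSPA4L introns, read as follows, with capitals as above.
HSPA4 intron 8, 5′: ccaGTaagt
HSPA4 intron 8, 3′: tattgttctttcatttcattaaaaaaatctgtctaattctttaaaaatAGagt
HSPA4 intron 9, 5′: cagGTgaat
HSPA4 intron 9, 3′: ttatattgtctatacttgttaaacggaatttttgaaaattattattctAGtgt
HSPA4 intron 10, 5′: aagGTatca
HSPA4 intron 10, 3′: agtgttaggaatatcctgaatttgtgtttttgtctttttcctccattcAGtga

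**Figure D3:**
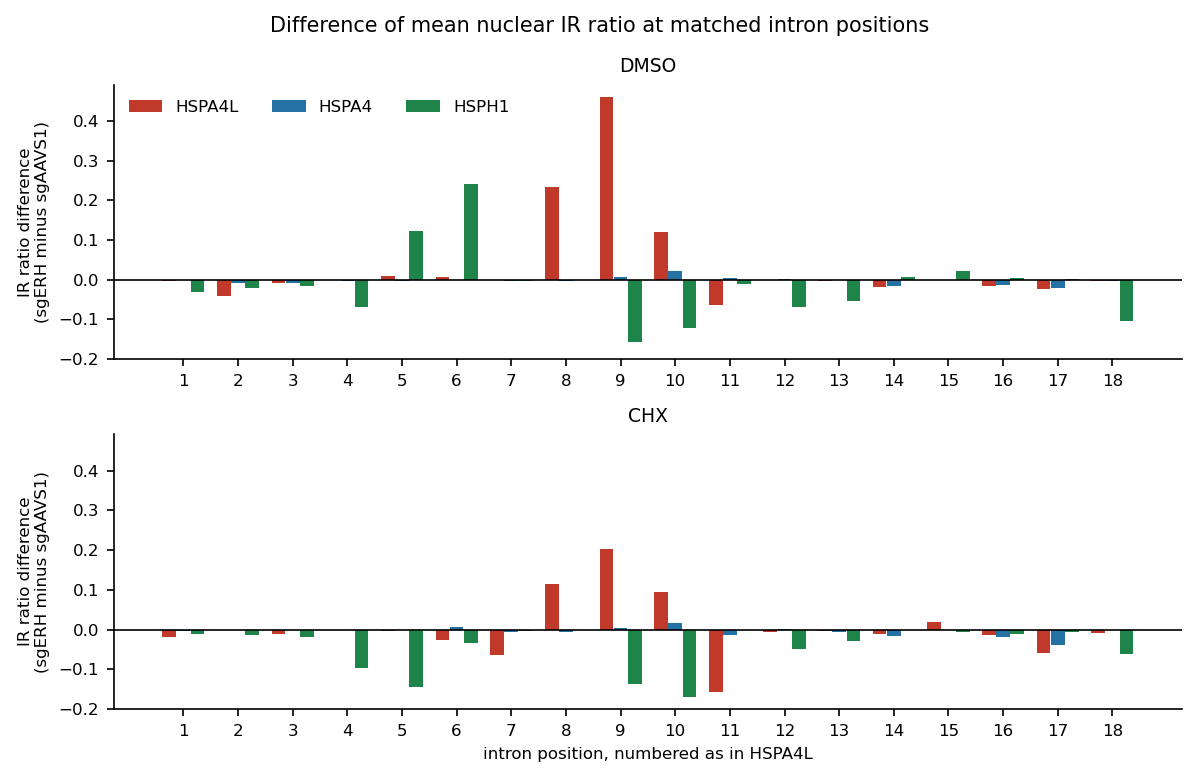
Difference of the mean nuclear IR ratio, sgERH minus sgAAVS1 (vertical axis), at matched intron positions of HSPA4L (red), HSPA4 (blue) and HSPH1 (green), numbered as in HSPA4L (horizontal axis), with DMSO (upper) and CHX (lower). Bars are differences of means of 3 libraries; HSPA4L intron 4, which was not tested, and position 8 of HSPH1, which has no intron, are blank, and HSPA4L stands at 0.46 at position 9 with DMSO where HSPH1 stands at -0.157.

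In an mRNA with a retained intron, the reading frame of the exon before it runs on into the intron. Read on from the exon before it, each of the 53 canonical introns of the 3 genes held an in-frame stop codon, first met at intron base 2 to 115 (median 28). In the 3 HSPA4L introns and in HSPH1 intron 6 it stood as follows, from the last 3 exon bases to the stop, with the stop in capitals.
HSPA4L intron 8: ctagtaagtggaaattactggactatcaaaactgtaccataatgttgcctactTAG
HSPA4L intron 9: caggtaTAA
HSPA4L intron 10: tgggTAA
HSPH1 intron 6: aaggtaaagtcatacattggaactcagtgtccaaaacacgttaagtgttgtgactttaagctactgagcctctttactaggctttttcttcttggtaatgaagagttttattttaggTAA
These stops begin at intron bases 51, 4, 2 and 115. Early stops were thus common to called and uncalled introns of these genes.

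In control nuclei, CHX against DMSO gave higher values for 2 of the same HSPA4L introns. Intron 9 went from a mean IR ratio of 0.0646 with DMSO to 0.530, 0.364 and 0.467 in the libraries with CHX (log2 fold change 3.52 ± 0.50, adjusted p = 0.000281), and intron 8 from 0.0618 to 0.348, 0.245 and 0.356 (2.78 ± 0.39, adjusted p = 0.000259). Both rose without overlap of the groups. Intron 10 did not move with them: it had a mean of 0.0307 with DMSO and 0.042 with CHX (0.40 ± 0.45, adjusted p = 0.679). HSPH1 intron 6 rose too, from 0.174 to 0.356 (1.41 ± 0.24, adjusted p = 0.000953), while HSPH1 introns 2, 11 and 12 and 1 intron of another transcript fell, with log2 fold changes of -1.12 to -1.25; the call of intron 2 was lost without any 1 of the 6 libraries, by DESeq2 (adjusted p = 0.227) and with a replicate block in edgeR (adjusted p = 0.0742). In all, 2 of 18 introns tested of HSPA4L, 0 of 18 of HSPA4 and 5 of 21 of HSPH1 were called, against 10.3% of all introns, and in HSPA4 3 introns had an unadjusted p under 0.05 and 0 were called by DESeq2.

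In sgERH nuclei, CHX gave no called rise in any member intron. Intron 9 of HSPA4L had means of 0.525 with DMSO and 0.657 with CHX, and intron 8 had 0.294 and 0.431. HSPH1 introns 9, 11 and 12 and the same intron of another transcript fell, 4 of 21 tested, with log2 fold changes of -1.13 to -1.33. The calls of intron 12 and of the intron of another transcript were lost without sgERH replicate 2 with CHX, at -0.96 and -0.91. Intron 6 of HSPA4L was called lower, from 0.0521 to 0.0116, with intron depths of 1.10 to 8.06, and the call was lost without any of 5 of the 6 libraries. The share of all introns called was 12.6%, with 11.1% called lower, and the median log2 fold change of all introns tested was -0.58. Of all introns tested, 24.1% to 29.9% had a lower value than these HSPH1 introns, and 11.4% a lower value than HSPA4L intron 6. These falls therefore lay within a general shift to lower values. HSPA4 had 0 of 18 called by edgeR and by DESeq2, with 3 at an unadjusted p under 0.05.

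With CHX in both guides, sgERH nuclei still differed from control nuclei in HSPA4L. Intron 10 rose from 0.0476, 0.0373 and 0.0412 to 0.140, 0.123 and 0.146 (log2 fold change 1.88 ± 0.32, adjusted p = 0.000784), which do not overlap. Intron 9 rose from a mean of 0.454 to 0.657 (1.22 ± 0.39, adjusted p = 0.0306), a call that was lost without sgAAVS1 replicate 2 or 3 or sgERH replicate 3, where its log2 fold change was 0.95 to 1.25. Intron 8 had 0.317 and 0.431 (0.73 ± 0.33, adjusted p = 0.108). Intron 11 fell from 0.389 to 0.232 (-1.06 ± 0.26, adjusted p = 0.00793), and this call was lost without sgAAVS1 replicate 1 or sgERH replicate 2, at -0.88 and -0.98. The median log2 fold change of all introns tested was -0.94 here, and 19.7% were called lower, so intron 11 lay near the general shift.

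In HSPH1, 4 introns were called in that comparison, while 19.7% of all introns were called lower and the median of the 21 HSPH1 introns was -0.73. Introns 4, 8, 9 and 17 fell, with log2 fold changes of -1.27 to -1.57; that of intron 4 was -0.97 and not called without sgERH replicate 2, and that of intron 17 was -0.85 and not called with reads across the intron boundaries. Intron 5 had 0.564 and 0.418 (-0.85 ± 0.22, adjusted p = 0.0104), under the size threshold. In HSPA4 only intron 17 was called, lower, from 0.069 to 0.0309 (-1.22 ± 0.22, adjusted p = 0.00109). In all, 3 of 18, 1 of 18 and 4 of 21 introns of HSPA4L, HSPA4 and HSPH1 were called, where 20.4% of all introns were called and the median log2 fold change of all introns was -0.94. Whether an intron's sgERH effect differs between CHX and DMSO was not tested.

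**Figure D4:**
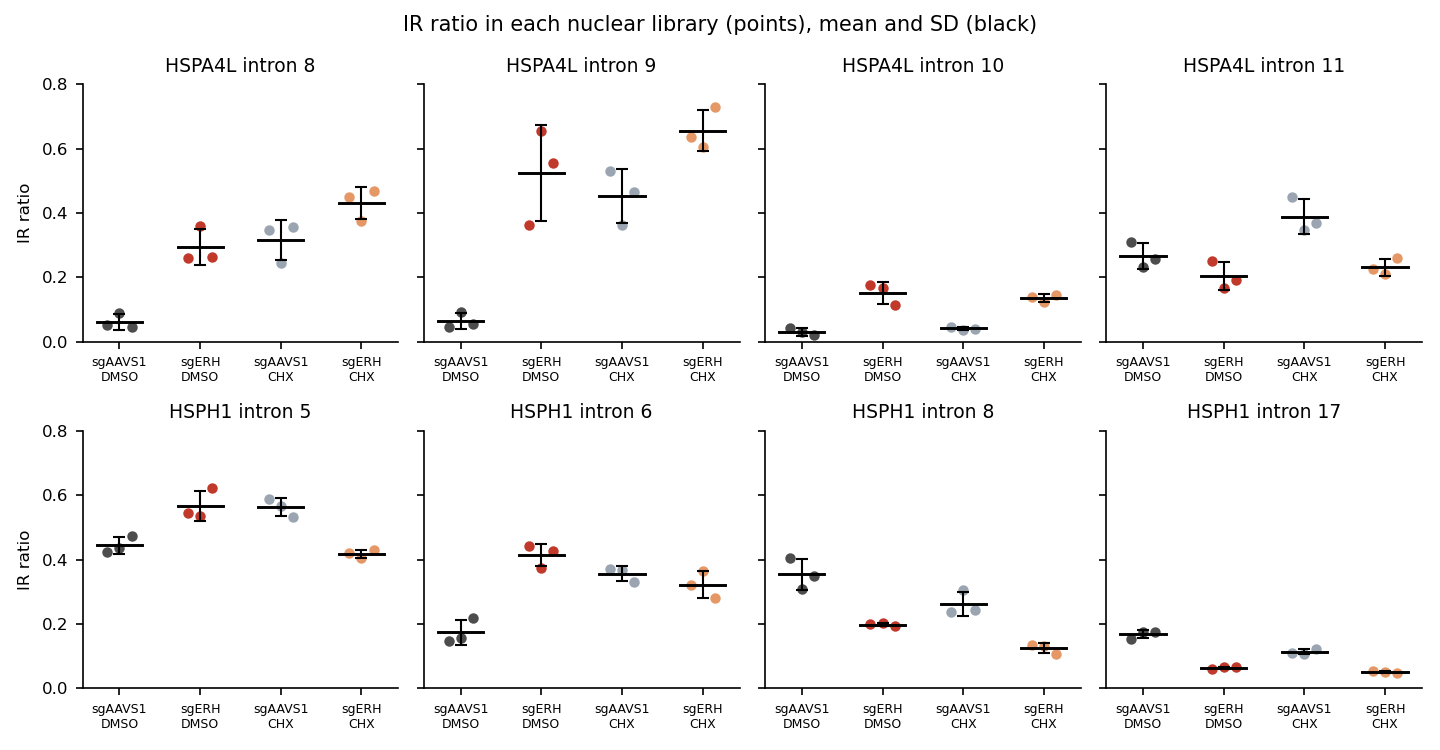
IR ratio (vertical axis, 0 to 0.8) in each nuclear library for HSPA4L introns 8 to 11 and HSPH1 introns 5, 6, 8 and 17, in the 4 nuclear groups. Points are libraries and black bars the mean and SD (n = 3), and HSPA4L intron 9 lies at 0.0452 to 0.0937 in control libraries with DMSO and at 0.363 or above in the 9 libraries of the other 3 groups.

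Little of the retained introns was seen in the cytoplasm. HSPA4L intron 9 had IR ratios of 0.000158, 0 and 0 in control libraries with DMSO and 0.0637, 0.0119 and 0.0781 with sgERH, with intron depths of 10.3, 1.29 and 9.06 against at most 0.0824. It was called higher (adjusted p = 0.00304), without a fold change given here because the rounded depth was 0 in all control libraries, and the call was lost without sgERH replicate 1 or 3, which brought its mean under 0.05. HSPH1 intron 5 rose from a mean of 0.0119 ± 0.00351 to 0.062 ± 0.0032 (log2 fold change 2.39 ± 0.26, adjusted p = 8.74e-05) and intron 6 from 0.00431 ± 0.00293 to 0.0533 ± 0.0104 (3.60 ± 0.35, adjusted p = 4.04e-05); intron 6 was not called without sgERH replicate 2, for the same reason. These were 1 of 8 HSPA4L, 0 of 6 HSPA4 and 2 of 15 HSPH1 introns that passed the depth filter, where 1.88% of all introns were called. An intron could pass this filter through 1 group alone, so these counts support nothing by themselves. In HSPA4, 0 introns had an unadjusted p under 0.05 and 0 were called by DESeq2.

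RNAs that are normally kept in the nucleus were also more abundant in that cytoplasm. NEAT1 stood at 126 ± 14.2 CPM in control and 262 ± 19.7 in sgERH cytoplasm with DMSO (log2 fold change 1.06 ± 0.08, adjusted p = 2.27e-08) and KCNQ1OT1 at 1.58 ± 0.409 and 5.29 ± 0.378 CPM, and the median of the 4 such RNAs tested was 0.76. Their part in the cytoplasmic intron signal was not tested.

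With CHX, both HSPH1 introns fell in sgERH cytoplasm, intron 5 to 0.0165 ± 0.00492 (-1.98 ± 0.25, adjusted p = 0.00102) and intron 6 to 0.0193 ± 0.00328 (-1.52 ± 0.28, adjusted p = 0.00907). They were the 2 member introns called there, against 1.27% of all introns. HSPA4L intron 9 stayed at 0.0433, 0.0331 and 0.079 in sgERH cytoplasm with CHX and was at 0.0132, 0.00579 and 0.0171 in control. In the remaining 2 cytoplasmic comparisons edgeR called no member intron: between the guides with CHX, where 0.897% of all introns were called, and between CHX and DMSO in control cells, where 2.51% were. Unadjusted p-values under 0.05 were found for 6 of 8 HSPA4L, 1 of 6 HSPA4 and 2 of 15 HSPH1 introns in the first and for 3, 0 and 6 in the second, and DESeq2 called 0 in both. These counts too support nothing by themselves, because an intron could pass the depth filter through 1 group alone.

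The transcripts of HSPA4L fell together in the cytoplasm with DMSO, though not equally. The canonical HSPA4L-201, 10608 bases long, had 97.7, 104 and 86.2 CPM in control and 43.6, 48.5 and 44.3 CPM in sgERH cells (log2 fold change -1.08 ± 0.07, adjusted p = 1.14e-05). The shorter HSPA4L-202 (2639 bases) had a mean of 30.5 ± 5.07 and 9.75 ± 1.93 CPM (-1.65 ± 0.28, adjusted p = 0.00292) and HSPA4L-204 (3020 bases) 18.1 ± 2.75 and 2.08 ± 1.05 CPM (-3.11 ± 0.38, adjusted p = 0.000383). None of the 3 contains a canonical intron in an exon. HSPA4L-201 held 66.0% ± 2.65 of the counts of the gene in control and 79.3% ± 5.14 in sgERH cytoplasm. Salmon divides shared reads between such transcripts by estimation, and in the nucleus HSPA4L-202 and HSPA4L-204 were at 0 in some libraries of most groups, so their nuclear values are not described.

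HSPH1-207, annotated as a retained-intron transcript, includes canonical introns 6 and 13 whole in its exons. It begins at chr13:31152501, within intron 5 (chr13:31151743-31152851), so its first exon also holds part of that intron. Its level therefore mixes introns 5, 6 and 13 and is not a view of intron 6 alone. It had 1.72, 1.87 and 1.20 CPM in control and 5.11, 6.31 and 5.19 CPM in sgERH cytoplasm with DMSO, and rose (log2 fold change 1.79 ± 0.26, adjusted p = 0.00119) while the gene as a whole stood at -0.43. In the nucleus it had 53.9, 52.1 and 50.7 CPM in control and 93.7, 85.6 and 85.9 CPM with sgERH (0.76 ± 0.10, adjusted p = 0.0017, under the size threshold), or 15.2% and 24.3% of the counts of HSPH1. With CHX its nuclear means were 40.9 ± 1.87 and 28.5 ± 3.88 CPM (-0.52 ± 0.10, adjusted p = 0.0069). These reads are partly those behind the IR ratio and are no independent measurement.

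In the cytoplasm with DMSO, HSPA4L-201, HSPA4L-202, HSPA4L-204 and HSPH1-207 were the 4 member transcripts called of 13 tested, where 5.88% of all transcripts were called. With CHX it was HSPA4L-202 alone, at 20 ± 2.02 and 8.46 ± 3.25 CPM (-1.24 ± 0.28, adjusted p = 0.0179), where 2.95% of transcripts were called, and this call was lost without any of 4 libraries (sgAAVS1 replicates 1 and 3, sgERH replicates 1 and 3). In the nucleus no member transcript of 12 tested was called with DMSO (2.88% of all). With CHX the retained-intron transcript HSPH1-208 fell, from 2.82 ± 0.485 to 0.626 ± 0.15 CPM (-2.17 ± 0.37, adjusted p = 0.0039; 6.07% of all).

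The wider chaperone network was followed for comparison. Of 78 genes of HSP70s, HSP90s, J-domain proteins, other exchange factors, HSP90 co-chaperones, the TRiC ring, heat shock factors and small or mitochondrial chaperones, 74 were tested in the cytoplasm, and with DMSO 1 was called in sgERH cells, lower, where 9.3% of all genes were called higher and 2.16% lower. This was DNAJC13, a J-domain protein of endosomes, which fell from 95.0 ± 1.28 to 46.2 ± 1.69 CPM (log2 fold change -1.04 ± 0.07, adjusted p = 4.21e-09). At the adjusted p alone, 44 were lower and 12 higher. The share of all genes that passed the adjusted p alone is not given here, so these counts are not read as particular to the network. The 8 TRiC subunits, which form the cytosolic folding chamber, all passed that p on the lower side with a median of -0.49, as did 10 of 11 HSP90 co-chaperones with a median of -0.41 and all 4 HSP90s with -0.49, against a median of 0.04 over all genes tested. HSPA4 and HSPH1 lay near the medians of these lists and HSPA4L well below them. Other lists had medians nearer to that of all genes. These were the HSP70s (-0.11), the J-domain proteins (-0.01) and the heat shock factors and small or mitochondrial chaperones (-0.22). At the adjusted p, 8 J-domain proteins were higher and 9 lower, and 2 HSP70s were higher and 3 lower.

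The other exchange factors of HSP70, a group of BAG-domain and related proteins, had a median of -0.15 in that comparison, with 8 of 11 past the adjusted p (1 higher, 7 lower). In the nucleus with DMSO 75 chaperone genes were tested by edgeR and 38 passed the adjusted p, 22 higher and 16 lower, but none reached the size threshold. An unadjusted p under 0.05 was found for 49 of them. Shares of all genes at these p-values alone are not given here, so nothing particular to the network is read from these counts. With CHX, sgERH cells had 2 calls in the cytoplasm and 5 in the nucleus, all higher, where 5.79% and 5.29% of all genes were called higher. HSPA8, the constitutive HSP70 that Hsp110 proteins serve, rose from 398 ± 19.9 to 1022 ± 160 CPM in the cytoplasm (1.36 ± 0.08, adjusted p = 2.42e-09), and HSPB1, a small heat shock protein, from 23.8 ± 2.15 to 50.1 ± 7.83 CPM in the nucleus (1.08 ± 0.11, adjusted p = 5.20e-07). The heat-inducible HSPA6 and HSPA1A, also called, stayed at a few CPM or less. No Hsp110 gene was called higher in any comparison of the guides within a fraction.

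CHX against DMSO called 20 of 75 lower and 2 higher in control nuclei, where 10.8% of all genes were called lower and 14.4% higher, and 10 and 1 in sgERH nuclei, against 6.29% and 8.52%. In the cytoplasm it called 10 of 74 lower and 2 higher in control cells, against 6.31% and 13.6%, and 5 and 1 in sgERH cells, against 1.88% and 7.15%. Nothing particular to the network is read from these counts. In control nuclei all 4 HSP90s (median -1.20), all 11 HSP90 co-chaperones (-0.91) and all 8 TRiC subunits (-0.77) passed the adjusted p on the lower side. The median over all genes was 0.01, and the share of all genes passing that p alone is not given here. HSPA4 and HSPH1, at -0.74 and -0.85, were on the same side as these lists, and HSPA4L, at 0.83, was on the other.

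Among the genes whose pattern over the 24 libraries was most like that of HSPA4L, by Pearson correlation of log2 CPM over 11202 genes, were TOPBP1 (r = 0.94), ZMYM4 (0.918), ARFGEF1 (0.879) and ZNHIT1 (0.879). For HSPA4 they were PTGES3 (0.997), ATP5F1C (0.996) and CCT4 (0.996), and for HSPH1 ABCF3 (0.924), SLC33A1 (0.922) and ADTRP (0.915). Among the members, HSPA4L and HSPA4 correlated at -0.318 over all libraries, at 0.768 within the 12 cytoplasmic and at -0.667 within the 12 nuclear libraries, and HSPA4L and HSPH1 at -0.0203, 0.761 and -0.829. The points share libraries, fractions and treatments, and a correlation over all 24 mixes the fractions, so these values describe the libraries and are given with no test.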

How the data were processed

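Poly(A) RNA-seq libraries, 24 in all, were processed by the authors with the nf-core RNA-seq workflow (fastp 0.23.4 trimming, rRNA removal, STAR and salmon on GRCh38 with Ensembl annotation), and introns were measured with IRFinder-S. The deposited gene and transcript tables hold salmon's estimated counts and TPM, and the deposited intron tables hold depth as coverage, spliced read counts and the IR ratio, a fraction from 0 to 1. Whether the counting used strand is not given in the sources used here, and an RNA on the opposite strand overlaps the end of the last exon of HSPA4L.

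Estimated counts were rounded and summed per gene, kept by filterByExpr (minimum count 10), scaled by TMM within each fraction (within each treatment for fits across fractions) and tested with edgeR 4.0.16 (quasi-likelihood, R 4.3.3) with Benjamini-Hochberg adjustment over all features. Introns were tested with edgeR on rounded depth against spliced reads, with 1 intercept per library, where depth plus spliced reads averaged at least 10 and a group's mean depth was at least 1. DESeq2 1.42.0, another scaling, a length offset, other filters, reads across the intron boundaries, a replicate block and leaving out each library were the alternatives. Patterns were compared among 11202 genes of at least 5 CPM, with 0.5 added before the log. On simulated data, the gene test (nucleus, DMSO, 17330 genes) recovered 99% of genes changed by 1.5 on the log2 scale. The intron test (10000 introns) recovered 37% at 1.5 and 78% at 2, so intron calls can be incomplete. Changed genes and introns were drawn from well-covered ones, with a spread set beforehand, so these rates do not describe features of low depth. P-values measure the spread between libraries labelled as biological replicates. All tested member introns and transcripts of at least 1 CPM in a group could be named, with up to 2 called genes in each direction per chaperone list and sgERH comparison, and the genes most like each member, of which 1 is not reported here. The members and gene lists were chosen with earlier results of these data known. Of 62754 genes, 62700 matched the annotation, and 0 pairs of libraries were identical.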

Additional observations from a re-analysis of the deposited data

Results flagged for a closer look

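Several differences between 2 effects of sgERH passed a test of the difference itself. Between CHX and DMSO, the sgERH effect on the log2 scale differed by 0.79 for HSPA4L in the cytoplasm, by -0.41 for HSPA4L in the nucleus (adjusted p = 0.036 in edgeR) and by -0.56 for HSPH1 in the nucleus. Between nucleus and cytoplasm it differed by 1.81 for HSPA4L, 0.54 for HSPA4 and 0.44 for HSPH1 with DMSO, and by 0.68 for HSPA4L and 0.73 for HSPA4 with CHX. Of these only the difference of 1.81 also passed the size threshold. Both fractions of a treatment were scaled together, so these values are relative to all genes. Groups of 3 libraries were not searched for libraries that stand apart.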

How the results depend on the processing

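The 3 gene calls for the effects of sgERH or CHX (HSPA4L in sgERH cytoplasm with DMSO, HSPA4L between fractions with DMSO, HSPH1 with CHX in sgERH nuclei) held under every alternative run, with log2 ranges on leaving out a library of -1.38 to -1.27, 1.77 to 1.89 and -1.47 to -1.38. The length offset moved member gene values most, by up to 0.34, and then came upper-quartile scaling with 0.12. In 3 cases a value near 0 changed sign. HSPH1 in sgERH nuclei with DMSO was 0.0019 without a filter on low counts, 0.038 under upper-quartile scaling and -0.021 to 0.0086 on leaving out a library. HSPA4L in sgERH nuclei with CHX was -0.031 with a length offset and -0.086 to 0.150 on leaving out a library. HSPH1 between fractions with CHX was -0.060 with a length offset and -0.027 to 0.112 on leaving out a library. The cause was not tested.

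Counts of member introns called moved at an IR ratio of at least 0.1, to 0 from 3 in sgERH cytoplasm with DMSO, to 0 from 2 with CHX in sgERH cytoplasm and to 2 from 5 with CHX in sgERH nuclei. In sgERH cytoplasm with CHX 1 was called without the depth filter and 1 with the replicate block, from 0. With CHX in sgERH cytoplasm 1 was called by DESeq2, and 1 to 2 on leaving out a library, 1 without sgERH replicate 2 with DMSO. The HSPA4L intron 9 call between guides in nuclei with CHX was lost with DESeq2 (adjusted p = 0.0693) and with boundary reads (0.0534), that of HSPH1 intron 17 with boundary reads (-0.85), and HSPH1 intron 6 with CHX in sgERH cytoplasm with DESeq2 (0.288). Over all introns, DESeq2 called 481 against 926 in sgERH cytoplasm with DMSO and 154 against 442 with CHX, and for CHX against DMSO 551 against 1235 in control and 137 against 625 in sgERH cytoplasm. An IR ratio of 0.1 gave 592, 268, 692 and 366 there. Boundary reads gave 518 and 260 in the cytoplasm, and 3421 against 5830 and 14470 against 25670 in the nucleus, between the guides. Genes higher in sgERH nuclei with CHX were 916 of 1553, and 1138 of 1626 under upper-quartile scaling.

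Same-numbered libraries did not deviate together throughout (correlation over 0.1 in 6 of 18 cytoplasmic and 7 of 18 nuclear pairs, and in 7 of 12 pairs of nucleus and cytoplasm), so the numbers were not taken as pairs, and a replicate block moved member gene values by at most 0.0056 within a fraction and 0.0118 between fractions. Among named introns it ended the call of HSPH1 intron 2 with CHX in control nuclei (adjusted p = 0.0742).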
